A study of Mus musculus with 2 samples.

Results

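Titin (Ttn), nebulin (Neb), obscurin-like 1 (Obsl1) and titin-cap (Tcap, also called telethonin) were followed through single skeletal muscle fibres. These 4 genes of the 35163 in the deposited table were taken by name as sarcomere ruler genes and their close partners. The name of giant gene holds for 2 of them. The longest annotated transcript of Ttn has 106.824 kb and that of Neb 22.489 kb, but that of Obsl1 has 5.679 kb and that of Tcap only 0.948 kb.

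The sarcomere, the contractile unit of striated muscle, runs between neighbouring Z-discs with the M-band at its middle. Titin spans from the Z-disc to the M-band and acts as a molecular spring and scaffold for the thick filament, while nebulin lies along the thin actin filament and stabilises its length. Tcap binds the end of titin in the Z-disc, and obscurin-like 1 binds titin and myomesin at the M-band and also belongs to the 3M complex, a group of proteins outside the sarcomere that regulates ubiquitin ligation.

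The cells came from the flexor digitorum brevis (FDB), which flexes the toes, of 1 untreated C57BL/6J mouse older than 3 months. Single cells were sorted into plates and libraries were made by mcSCRB-seq, in which each captured RNA carries a unique molecular identifier (UMI). The 8 plates are read here from the index label of each cell, and that an index equals a plate is inferred. Plates 705 to 708 were sequenced on lane 1 and plates 709 to 712 on lane 2. These lanes are the 2 samples of the series. The table labels each cell as a whole myofiber, for cells sorted from the intact muscle, or as a fragment, for cells from cut muscle (the pseudo-biopsy). The sorted cells came from both time-of-flight gates, of which the low one held mostly rod-shaped pieces by the study's account, so cells labelled whole include broken ones, and their gate was not analysed here. All labelled fragments lay in row 8 of the plates, so fragment and plate row cannot be told apart. Of 763 cells, the 171 in which over 5000 genes were seen and mitochondrial genes took under 20% of the counts were kept, 168 of them labelled whole and 3 labelled fragments. The other 502 cells labelled whole and 90 fragments were excluded. Kept cells were classed by the largest of the 5 myosin heavy chain genes Myh1, Myh2, Myh4, Myh7 and Myh8, which gave 117 fast 2X cells (Myh1), 51 fast 2A cells (Myh2), 2 slow cells (Myh7) and 1 fast 2B cell (Myh4). The study counted more slow cells, since it also took those with modestly raised Myh7. The fast classes here can therefore hold cells that the study called slow. Because all cells belong to 1 mouse, cells are not replicates, no p-value was computed, and lanes and plates show technical repeatability only.

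Levels are CPM, UMI counts scaled to a total of 1000000 nuclear counts, with the 27 mitochondrial genes left out of the total. Kept cells held 23951 to 1438767 nuclear UMIs, with a median of 225207. The medians were 236132 in fast 2X and 192133 in fast 2A cells, 6722.5 in excluded whole myofibers and 12160.0 in excluded fragments. The myofiber markers Acta1, Ckm, Tnnt3 and Mylpf were all present in each of the 171 kept cells. For 8 other cell types, all 35 markers had counts somewhere in the kept cells, and the summed level of a list ran from 4.65 CPM (adipocyte) to 166 CPM (endothelial). The 10 kept cells with the least Acta1, the skeletal muscle actin, held more of these other markers. The fast 2A over fast 2X ratios are also given without them. So are the correlations of Ttn with Neb and of Tcap with Ttn and Acta1, while ranges and CVs include these cells.

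All 4 genes lie on reference chromosomes of GRCm38. Ttn (ENSMUSG00000051747.14) occupies chr2:76703980-76982547 on the minus strand and its longest transcript has 347 exons. Neb (ENSMUSG00000026950.17) lies on the same strand at chr2:52136647-52378474 with 157 exons. Obsl1 (ENSMUSG00000026211.17) occupies chr1:75479310-75506452 on the minus strand with 20 exons, and Tcap (ENSMUSG00000007877.2) chr11:98383811-98384953 on the plus strand with 2 exons. The counting program zUMIs was run with default settings, and the sources used here do not spell out their use of strand. Of the genes annotated across the 4 loci, Tmem198, opposite to Obsl1, had 25 counts in the kept cells, equal to 2.06% of those of Obsl1. The antisense genes Gm13938 at Ttn and Gm13522 at Neb had 12 and 13 counts.

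Reverse transcription was primed on runs of A, chiefly the poly(A) tail, so stretches of A within a transcript were sought as other places where the primer could anneal. The motif was AAAAAAAA, read on the transcript strand in the longest transcript of each gene, with the last 100 bases left out. Ttn held 2 such stretches in 106.824 kb, both in its last exon, number 347, and neither lying wholly in coding sequence. Neb, Obsl1 and Tcap held 0. These are shown 5′ to 3′ in the sense of the transcript, with the run of A in capitals, the first 112 bases and the second 608 bases from the 3′ end.
Ttn, chr2:76704082-76704111, minus strand: actgcccatAAAAAAAAAAAttactaattt
Ttn, chr2:76704578-76704607, minus strand: ctatccacctAAAAAAAAAAggatgcttct
Over 21801 protein-coding transcripts, 23.3% held at least 1 stretch of this kind and the density was 0.118 per kb, against 0.0187 per kb in Ttn. The table gives no read positions, so the part of these stretches in the Ttn count was not tested.

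Ttn had the most UMIs of any nuclear gene in the kept cells, 6.26% of nuclear counts. It was the nuclear gene with the most UMIs in 140 of the 171 cells. Neb took 1.61% of the nuclear counts, Tcap 0.807% and Obsl1 0.00248%. Set per kb of longest transcript, the order was different. Tcap reached 8517 CPM per kb, 14.5 times the 586 CPM per kb of Ttn. Neb had 716 CPM per kb, 1.22 times Ttn, and Obsl1 had 4.37 CPM per kb, so that Ttn per kb was 134 times higher. The library method captures the 3′ end of a molecule, for which a value per kb divides one UMI by the whole transcript. On both scales Obsl1 was the lowest of the 4.

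The first comparison asks whether the 4 genes differ between the main fibre types. None of them did so by 2-fold. In fast 2X cells Ttn ranged from 9219.9 CPM in the lowest cell through a median of 54221 to 101015 CPM in the highest, and in fast 2A cells from 12679 through 60395 to 125728 CPM. The classes overlapped over nearly their whole range. From summed counts the level was 60274 CPM (95% Poisson limits 60195 to 60353) in fast 2X and 69956 CPM (69799 to 70112) in fast 2A. These limits, like all intervals here, cover counting error only.

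Neb, the thin-filament ruler, showed the same overlap. Its CPM in single fast 2X cells ran from 2853 through a median of 14302 to 31669, and in fast 2A cells from 3017 through 15645 to 32029. The summed levels were 15485 CPM (15445 to 15525) and 18137 CPM (18057 to 18217).

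Tcap, the cap of titin, was the member whose cells lay closest together. Fast 2X cells held 2078 to 14394 CPM with a median of 8375, and fast 2A cells 4641 to 13892 CPM with a median of 9267. Summed counts gave 7737 CPM (7709 to 7766) and 9117 CPM (9061 to 9174).

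Obsl1, the M-band protein, was sparse. Its level was 23.6 CPM (22.0 to 25.2) in fast 2X and 28.3 CPM (25.2 to 31.6) in fast 2A, from 873 and 311 counts in all. At least 1 UMI was found in 85.5% of fast 2X cells (exact Clopper-Pearson 95% limits 77.8 to 91.3) and in 92.2% of fast 2A cells (81.1 to 97.8). With each cell thinned to 23951 UMIs, the shares were 42.7% (33.6 to 52.2) and 51.0% (36.6 to 65.2), and a cell held 0.598 and 0.863 UMIs of Obsl1 on average. These means lie under 1 UMI and the limits overlap, so no difference in Obsl1 detection was resolved at this depth.

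As log2 ratios of CPM, fast 2A over fast 2X, Ttn was 0.21 (95% limits 0.21 to 0.22), Neb 0.23 (0.22 to 0.24), Obsl1 0.26 (0.07 to 0.45) and Tcap 0.24 (0.23 to 0.25). A gene was called when its summed CPM differed by at least 2-fold, with at least 500 counts over both groups. Of the 8641 genes with enough counts, 2.48% were called in either direction, and 0 of the 4 members were. All 4 ratios lay above the median of all genes, which was -0.06 with quartiles of -0.26 and 0.14, and between 13.9% and 17.5% of genes had a higher ratio than each of them. Scaling by TMM, which set no minimum of counts, moved the centre by -0.08 and left each member positive.

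Within lanes the ratios were close to the pooled ones. On lanes 1 and 2 the log2 ratio of Ttn was 0.15 and 0.20, that of Neb 0.18 and 0.20, that of Tcap 0.20 and 0.29, and that of Obsl1 0.27 on both. Plates differed more. Plate 710 had only 2 fast 2A cells and was not compared. Of the other 7 plates, Tcap was higher in fast 2A on 7, from 0.02 on plate 705 to 0.39 on plate 712. Ttn was higher on 6 and lower on plate 709, where its log2 ratio was -0.18, and its highest value was 0.85 on plate 705, which held 6 fast 2X and 10 fast 2A cells. Neb had its lowest and highest values on those same plates, at -0.15 and 0.75. Obsl1 was higher on 6 plates, between -0.02 on plate 712 and 0.61 on plate 706, and on each plate its limits included 0.

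**Figure D1:**
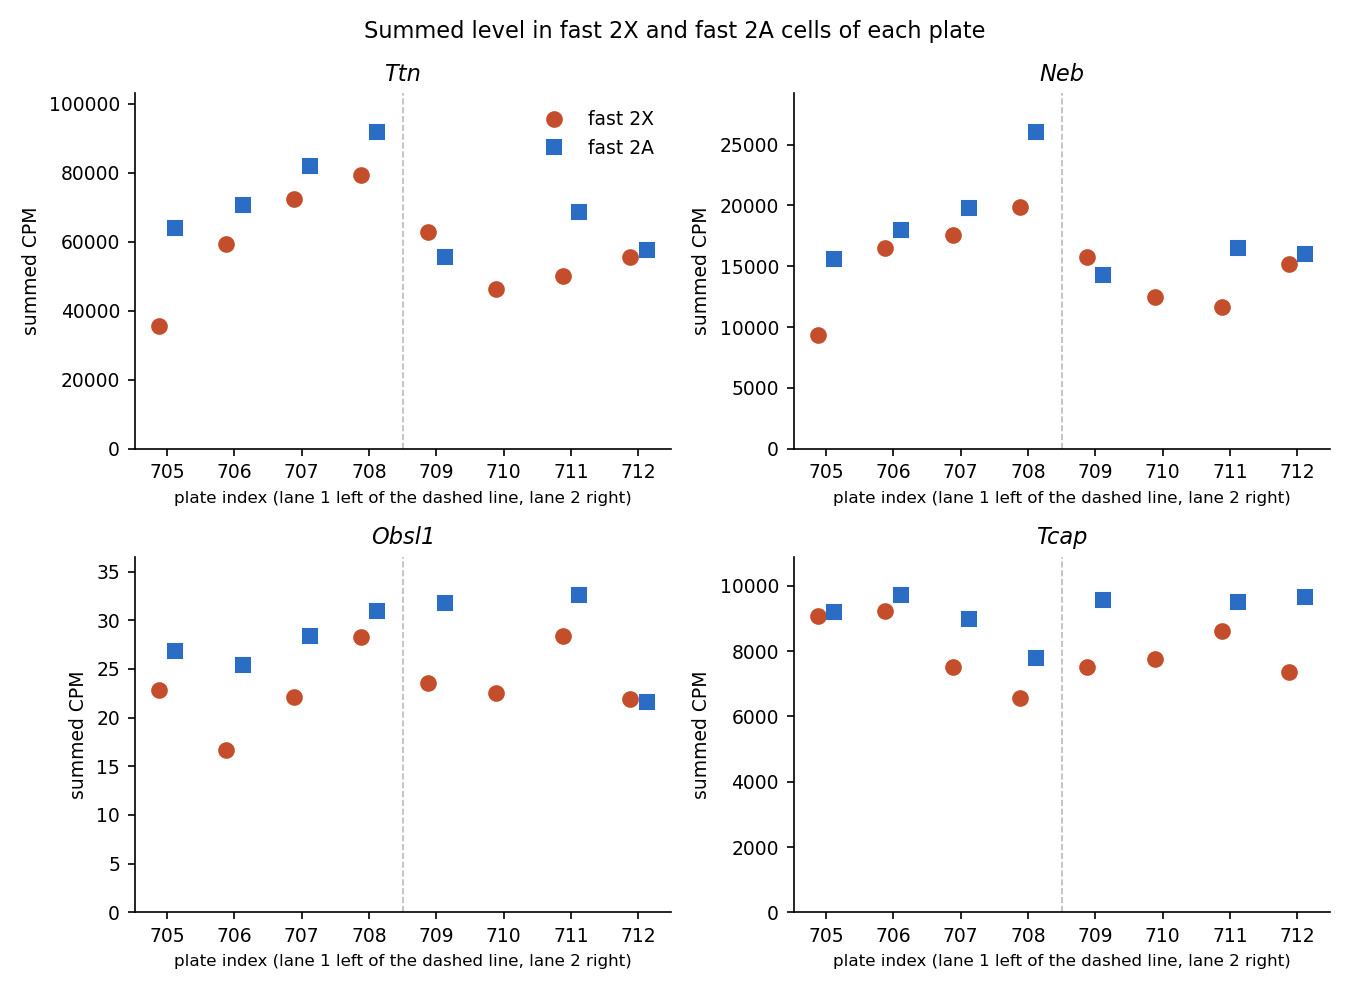
Summed level in CPM over nuclear genes (y axis) of Ttn, Neb, Obsl1 and Tcap in the fast 2X cells (circles) and fast 2A cells (squares) of each plate (x axis), with lane 1 left of the dashed line. Ttn in fast 2X cells lay between 35534 CPM on plate 705 and 79206 CPM on plate 708, and Tcap between 6554 and 9233 CPM. Both ranges over plates were wider than the gap between the pooled classes, which is an unlike measure.

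For Ttn, Neb and Tcap the levels of plates lay further apart than those of the fibre types. In fast 2X cells alone, summed Ttn went from 35534 CPM on plate 705 to 79206 CPM on plate 708, and Neb from 9315 to 19851 CPM. Tcap had its lowest fast 2X level, 6554 CPM, on plate 708, the plate with the highest Ttn, and its highest, 9233 CPM, on plate 706. When cells were placed by the share of Myh2 in Myh1 plus Myh2, Ttn did not move in one direction. It was 62319 CPM in the 48 cells under 20%, 55926 CPM in the 60 cells from 20 to 40%, 68092 CPM in 18 cells, 61325 CPM in 29 cells and 87622 CPM in the 16 cells from 80% upward. Tcap went from 7431 CPM under 20% to 9267 CPM at 60 to 80% and 8646 CPM above.

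Few cells represented the other types. The slow cells held 82027 and 119862 CPM of Ttn, 22955 and 17908 CPM of Neb, and 11329 and 12195 CPM of Tcap. Their Ttn levels were inside the range of fast 2A cells. In Obsl1 they had 16 UMIs and 1 UMI. The fast 2B cell held 20888 CPM of Ttn, 6119 CPM of Neb, 4784 CPM of Tcap and 10 UMIs of Obsl1. It also held 2213 CPM of fibroblast markers and was among the cells low in Acta1, and the part of those other transcripts in its levels was not tested.

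**Figure D2:**
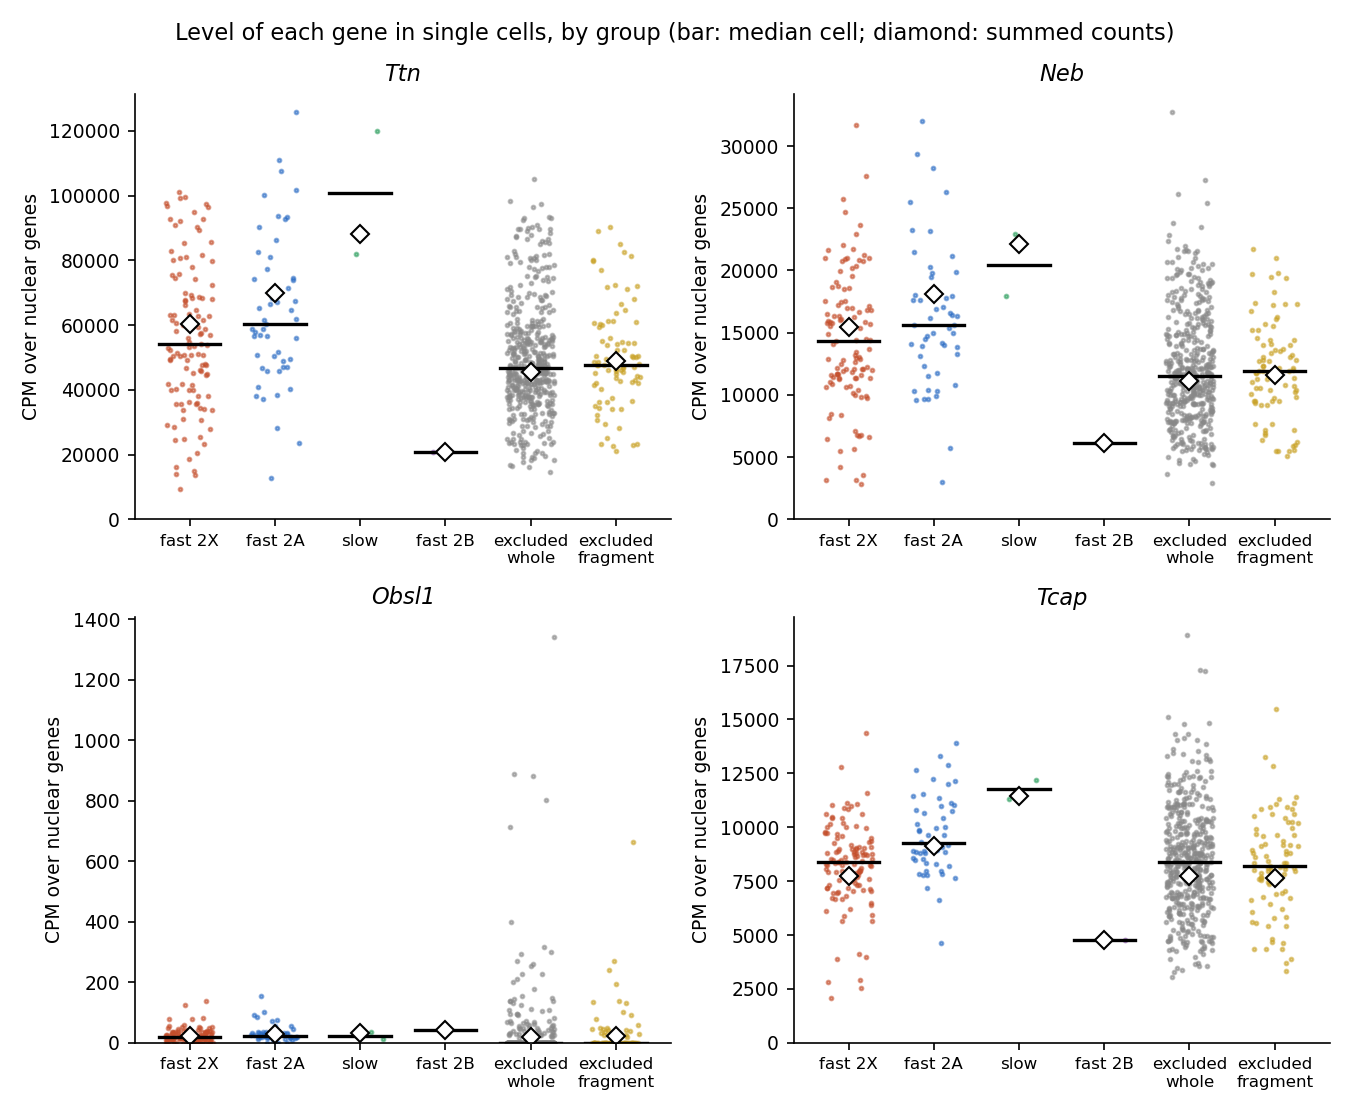
Level of Ttn, Neb, Obsl1 and Tcap in CPM over nuclear genes (y axis) in single cells by group (x axis), with 1 point per cell, a bar at the median cell and a diamond at the level from summed counts. Excluded cells under 1000 nuclear UMIs are not drawn. The fast 2X and fast 2A clouds overlap for each gene, and most excluded cells lie at 0 for Obsl1.

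The 10 kept cells with the least Acta1 held 6057 to 17135 CPM of it, and the other 161 held 17748 to 57692 CPM, so the set has no clear edge. The number of 10 was chosen after the values were seen. The cells comprised 8 fast 2X, 1 fast 2A and 1 fast 2B, among them 1 fragment, and lay on 6 of the 8 plates. Their median Ttn was 15506 CPM against 58259 CPM in the others, their median Neb 3859 against 15276 CPM, and their median Tcap 3922 against 8794 CPM. At the same time their median for endothelial markers was 913 against 126 CPM, for fibroblast markers 856 against 21.1 CPM and for smooth muscle and pericyte markers 483 against 21.9 CPM. After thinning to one depth they had a median of 7111.5 genes against 5392 in the others. The part of these other transcripts in the low member levels was not tested. The lowest Ttn, Neb and Tcap in the 10 cells were 9219.9, 2853 and 2078 CPM, against 20513, 5682 and 5631 CPM in the others. The lowest fast 2X and fast 2A values given above for these genes therefore lie in this set. Without the 10 cells the log2 ratios of fast 2A over fast 2X were 0.23 for Ttn, 0.23 for Neb, 0.29 for Obsl1 and 0.21 for Tcap.

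Other genes of the sarcomere were counted by lists of binding partners. In the list of titin partners at the Z-disc and the elastic N2A segment, all 14 genes had enough counts. Of these, 1 was called higher in fast 2A (background 0.891% of all genes), 1 was called lower (background 1.59%), and the median log2 ratio was 0.32 against -0.06 for all genes, with 10 of 14 above 0. The gene that rose was Ankrd2, a stretch-responsive ankyrin repeat protein that binds titin in the N2A region, from 124 CPM in fast 2X to 498 CPM in fast 2A (log2 ratio 2.00). The gene that fell was Actn3, the fast-fibre α-actinin that crosslinks actin in the Z-disc, from 2599 to 799 CPM (-1.70). Its relative Actn2, which binds titin in the Z-disc of all fibres, was at 1637 CPM in fast 2X and 2798 CPM in fast 2A (0.77), and Csrp3, muscle LIM protein, which interacts with Tcap, was at 1198 and 2174 CPM (0.86). These last values did not reach 2-fold.

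Of the titin partners at the M-band and A-band, 11 of 13 listed genes had enough counts and 2 were called, both lower in fast 2A (background 1.59%). Myom2, the M-protein that links thick filaments at the M-band, fell from 62.8 to 11.7 CPM (log2 ratio -2.42). Mybpc2, the fast isoform of myosin-binding protein C, fell from 848 to 198 CPM (-2.10). The median of the list was -0.05. Myom3, another myomesin, was at 726 CPM in fast 2X and 1019 CPM in fast 2A (0.49), and Ank1, an ankyrin with a small form in the sarcoplasmic reticulum, at 279 and 210 CPM (-0.41). Myom1 was not analysed here.

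The list of nebulin relatives and proteins of the thin filament had 15 of 18 genes with enough counts, a median log2 ratio of 0.10 and 1 call, higher in fast 2A (background 0.891%). Tpm3, the slow-fibre tropomyosin, rose from 59.7 to 356 CPM (2.58). The leiomodins Lmod2 and Lmod3, which nucleate actin and bind the pointed end of the thin filament, were at 609 and 952 CPM (0.64) and at 241 and 338 CPM (0.49) in fast 2X and fast 2A. Of the 3M complex, Fbxw8 was at 12.99 and 16.65 CPM (0.36). Among 6 genes of titin splicing and sarcomere assembly, 0 were called. The extremes of that list were Smyd2, a methyltransferase that interacts with titin N2A, at 15.9 and 8.37 CPM (-0.93) and Rbm20, the splicing factor that represses titin exons, at 63.4 and 95.7 CPM (0.60).

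**Figure D3:**
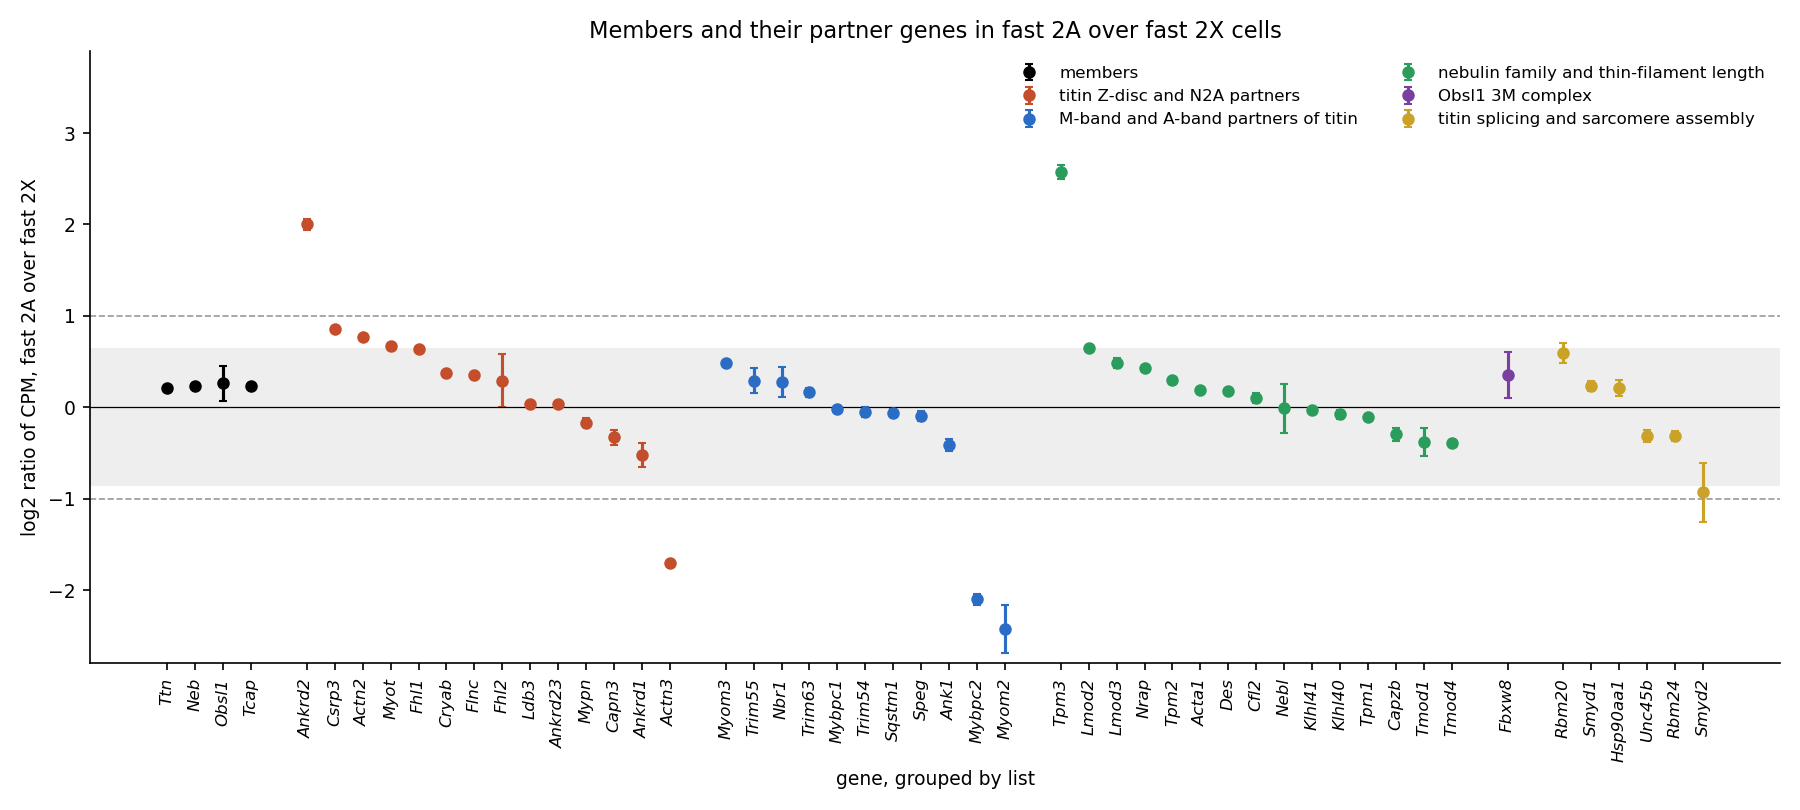
Log2 ratio of CPM, fast 2A over fast 2X (y axis), of the 4 members and of each partner gene with at least 500 counts (x axis), grouped by list, with 95% counting limits, dashed lines at 2-fold and a grey band from -0.85 to 0.63 holding the middle 95% of all genes. The members lie between 0.21 and 0.26, inside the band, and Tpm3, Ankrd2, Actn3, Mybpc2 and Myom2 lie beyond the dashed lines.

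The second comparison asks how the 4 genes varied from cell to cell within 1 fibre type. Over the 117 fast 2X cells, the coefficient of variation (CV, the SD divided by the mean CPM) was 0.397 for Ttn, 0.371 for Neb and 0.236 for Tcap. Among 2444 genes detected in at least 95% of these cells the median CV was 0.544 and only 4 genes had a lower CV than Tcap. For Ttn 13.6% of genes were lower and for Neb 9.86%. These genes were not matched for level, and Ttn, Neb and Tcap ranked 1, 3 and 11 by summed counts in fast 2X cells. The part of abundance in their low CVs was not tested. Counting alone would give Tcap a CV of 0.0331. Obsl1 had a CV of 0.922, of which counting alone would give 0.599.

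Ttn and Neb varied together. Across the 117 fast 2X cells their Spearman correlation was 0.93, and across the 51 fast 2A cells it was 0.91. Within lanes it was 0.93 and 0.88, and on the 8 plates, over 16 to 27 kept cells each, it ran from 0.84 to 0.95. With every cell thinned to one depth it was 0.94, and with the members and the myosin genes taken out of the denominator 0.95. In the 109 fast 2X cells left after those low in Acta1 were set aside it was 0.92. In the 545 excluded cells with at least 1000 nuclear UMIs it was 0.82. These cells share a mouse, plates and lanes, so the values are a description. The number of Neb UMIs per Ttn UMI in a fast 2X cell had a median of 0.252 and ran from 0.184 to 0.479, a span of 2.60-fold. Over the same cells, with those low in Acta1 included, Ttn itself spanned 9219.9 to 101015 CPM.

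Tcap had no such steady relation with Ttn. Its Spearman correlation with Ttn in fast 2X cells was -0.19, and it was -0.45 in fast 2A cells and -0.36 in the 109 fast 2X cells left after those low in Acta1 were set aside. With the members and the myosin genes out of the denominator it was -0.03. On single plates it ran from -0.29 to 0.15 and was above 0 on 2 of 8. The Pearson correlation of log2 CPM in fast 2X cells was 0.32, of opposite sign, and in the 545 excluded cells the Spearman correlation was 0.33, so no direction is read from this pair. The number of Tcap UMIs per Ttn UMI ran from 0.0442 to 0.467, a span of 10.6-fold. With Acta1 the correlation of Tcap was 0.75 in fast 2X cells, 0.66 in fast 2A cells and 0.45 to 0.87 on the 8 plates. In the 109 fast 2X cells without those low in Acta1 it was 0.69.

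**Figure D4:**
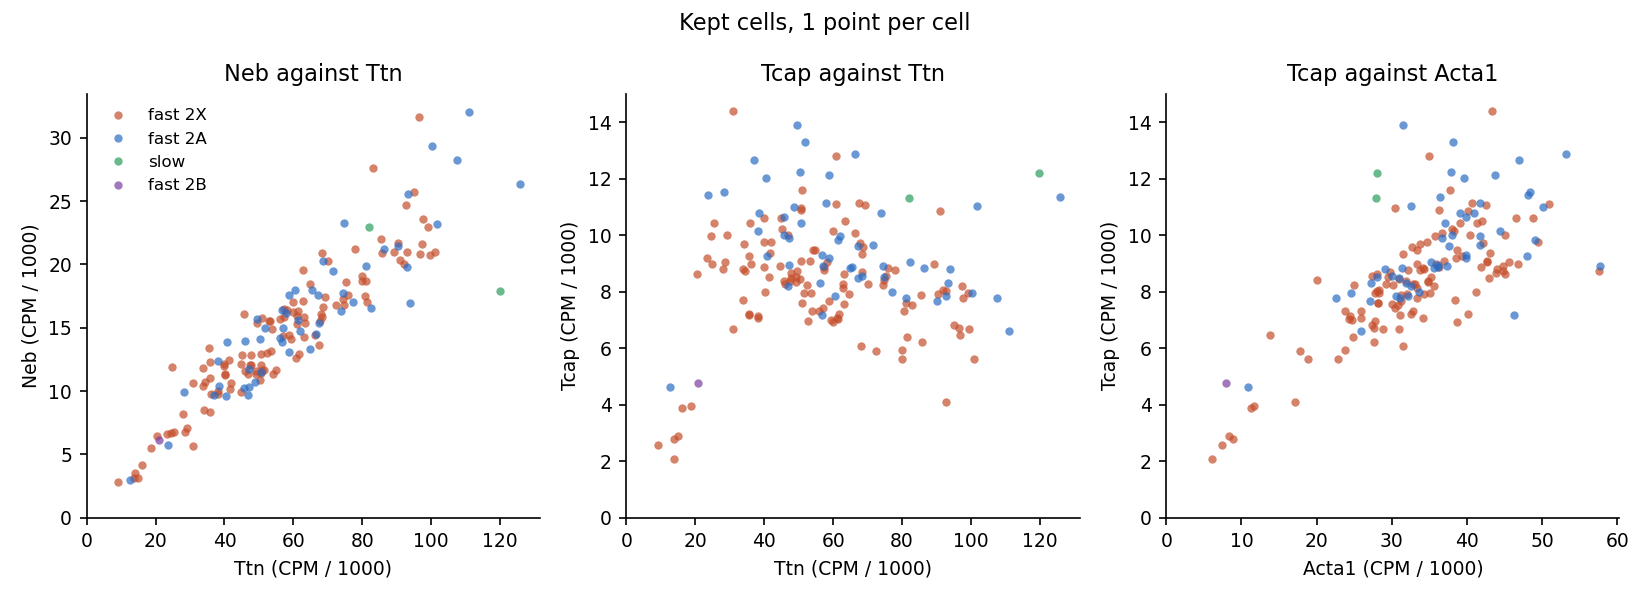
Kept cells, 1 point per cell coloured by class, with levels in CPM divided by 1000 on both axes: Neb against Ttn, Tcap against Ttn and Tcap against Acta1. In fast 2X cells the Spearman correlation was 0.93 for Neb and Ttn, -0.19 for Tcap and Ttn and 0.75 for Tcap and Acta1.

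Obsl1 had correlations of -0.02 with Ttn, -0.06 with Neb and 0.03 with Tcap in fast 2X cells. With counts this sparse, no relation is read from these values.

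For each member the 5 genes with the most similar pattern over the 117 fast 2X cells were taken by Spearman correlation of CPM among 2443 genes. For Ttn these were Neb (0.93), Xirp2 (0.75), Golga4 (0.72), Dmd (0.66) and Zfp106 (0.65). Xirp2 encodes an actin-binding repeat protein of muscle attachment sites, Golga4 a golgin of the trans-Golgi, and Dmd dystrophin, which links the cytoskeleton to the membrane. Neb had Ttn, Xirp2 (0.71), Golga4 (0.69), Dmd (0.68) and Akap9 (0.64), a scaffold protein that anchors protein kinase A. For Tcap they were Acta1 (0.75), the glycolytic enzymes Eno3 (0.74) and Pgam2 (0.64), the mitochondrial adenine nucleotide carrier Slc25a4 (0.65) and Jsrp1 (0.62), a protein of the junctional sarcoplasmic reticulum. Obsl1 reached at most 0.42, with Fbxl20.

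How far these lists held differed between members. Of the 5 genes taken over fast 2X cells, 3 returned for Ttn on each lane, 4 and 2 for Neb on lanes 1 and 2, 4 and 1 for Tcap, and 2 and 0 for Obsl1. In the 51 fast 2A cells 2 returned for Ttn, 2 for Neb, 1 for Tcap and 0 for Obsl1. The fast 2A list of Ttn kept Neb and Xirp2 and added Jarid2, Gm15564 and Mir6236, with annotated transcripts of 8353, 545 and 123 bases.

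The genes most like Ttn and Neb in fast 2X cells had long transcripts and those most like Tcap short ones. The 4 genes that followed Neb in the Ttn list had longest transcripts of 7583 to 14910 bases, and the 5 of Tcap 840 to 1925 bases. Within single lanes the Ttn list reached down to 3867 bases (Ube2n, lane 1) and 2499 bases (Fgf13, lane 2). The Neb list also reached down to 2499 bases on lane 2, and the Tcap lists reached up to 2175 bases (Tpm2, lane 2). Over 2434 genes with a known length, the correlation with Ttn had itself a Spearman correlation of 0.34 with transcript length, that with Neb 0.33 and that with Tcap -0.57. Genes under 2 kb had a median correlation of -0.12 with Ttn and 0.22 with Tcap. Genes of 8 kb or more had medians of 0.11 with Ttn and -0.18 with Tcap. Genes are not independent replicates, and the part of transcript length in the pattern of the members was not tested.

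**Figure D5:**
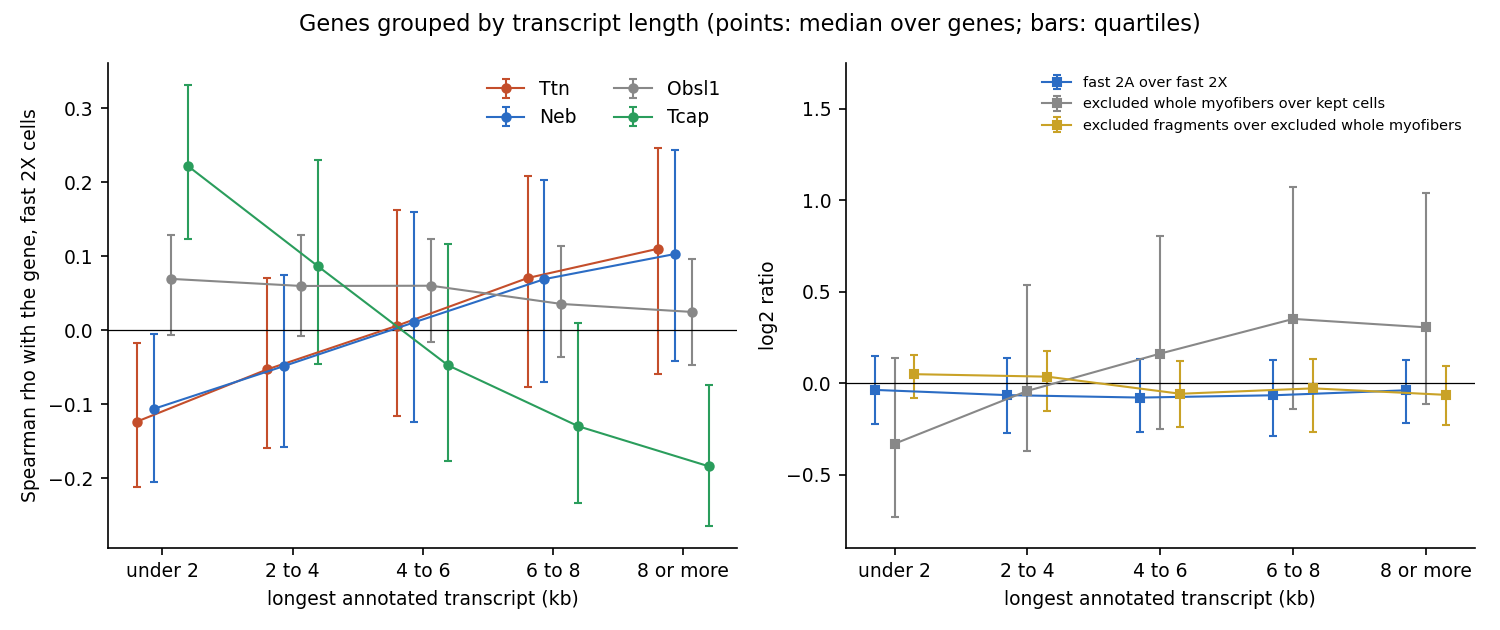
Genes grouped by the length of their longest annotated transcript in kb (x axis of both panels), with points at the median over genes and bars at the quartiles. Left, the Spearman correlation of these genes with each member across the 117 fast 2X cells goes from -0.12 to 0.11 for Ttn and from 0.22 to -0.18 for Tcap, and right, the log2 ratio of excluded whole myofibers over kept cells goes from -0.33 in genes under 2 kb to 0.31 in those of 8 kb or more.

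Measures of RNA quality moved with the members too. In fast 2X cells the level of Ttn had a Spearman correlation of 0.40 with the mitochondrial share, and in fast 2A cells 0.57. For Neb these were 0.30 and 0.49, and for Tcap 0.07 and -0.26. With the number of nuclear UMIs, Ttn had a correlation of 0.14 in fast 2X and 0.40 in fast 2A cells, Neb of 0.19 and 0.48, and Tcap of -0.34 and -0.46. The median mitochondrial share was 5.01% in fast 2X and 6.96% in fast 2A cells, and its part in the small differences between these classes was not tested. The summed levels of the 8 lists of other cell types ran from 4.13 to 167 CPM in fast 2X and from 5.64 to 158 CPM in fast 2A cells.

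The third comparison sets the cells labelled whole that failed the filters, termed excluded whole myofibers here although they include cells of the low time-of-flight gate, beside the kept cells. The members were lower in CPM or near the kept level, and none reached 2-fold. Of 9564 genes with enough counts 21.5% were called, and 0 of the 4 members were. Ttn was at 45532 CPM (45358 to 45707) in the excluded whole myofibers and at 62565 CPM in the kept cells, a log2 ratio of -0.46 (-0.46 to -0.45). It was below 0 on 8 of 8 plates, from -0.80 to -0.24, and was -0.51 and -0.41 on the lanes. Neb, at 11083 against 16109 CPM, had a log2 ratio of -0.54, also below 0 on 8 of 8 plates, from -0.80 to -0.32.

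Tcap was nearest to 0. Its level was 7734 CPM in excluded whole myofibers and 8074 CPM in kept cells, a log2 ratio of -0.06 (-0.08 to -0.05), below 0 on 7 of 8 plates. The sign turned as a mean over cells, at 0.031, and with mt-Rnr1 and mt-Rnr2 not counted as mitochondrial, at 0.10, so no direction is read for Tcap. Obsl1, at 20.6 CPM (17.1 to 24.7) against 24.8 CPM, had a log2 ratio of -0.27 (-0.55 to 0.01) from 119 counts in the excluded cells. Of these, 17 lay in 1 cell of plate 705, and without it the log2 ratio was -0.47 (-0.77 to -0.18). On the lanes Obsl1 was 0.21 and -1.005, from 84 and 35 counts, so its direction was not the same on both. The 17 counts of that 1 cell are among the 84 of lane 1, and a lane 1 value without them was not computed. At least 1 UMI of Obsl1 was seen in 15.3% of the excluded whole myofibers (12.3 to 18.8), at a median depth of 6722.5 nuclear UMIs.

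The reference of this comparison matters. The median of the 9564 genes with at least 500 counts was 0.00. TMM and median-of-ratios scaling started from all genes with counts in both groups, without this minimum. They moved the centre by 0.61 and 0.68, and the part of genes with few counts in this shift was not tested. Relative to the TMM centre the log2 ratios were -1.07 for Ttn, -1.15 for Neb and -0.67 for Tcap. On that scale Ttn and Neb were past 2-fold. The scaling moves every gene by the same amount, and before it the lower quartile of the 9564 genes was -0.38. The share of all genes past 2-fold on that scale was not counted, so the 2 members are not called by it. With mitochondrial genes in the total all 4 members were past 2-fold, at -1.46 for Ttn, -1.54 for Neb, -1.26 for Obsl1 and -1.06 for Tcap. That total lowers every nuclear gene by the same amount. The filter itself picks cells by mitochondrial share, with a median of 46.7% in excluded whole myofibers and 5.96% in kept cells. These values are therefore not read as a result about the members. The 8 lists of other cell types were all higher in excluded whole myofibers than in kept cells, from 15.6 CPM (adipocyte) to 876 CPM (endothelial) against 4.65 and 166 CPM, and myofiber markers were at 45946 against 61535 CPM. The part of those transcripts in the lower CPM of Ttn and Neb was not tested. By transcript length the median log2 ratio of genes with enough counts was -0.33 under 2 kb and 0.31 at 8 kb or more. Ttn and Neb, the longest members, were at -0.46 and -0.54.

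Levels differed between excluded whole myofibers grouped by the reason for exclusion. By definition these groups also differ in the number of genes seen. The part of depth or of the mitochondrial share in their levels was not tested. Ttn was at 55502 CPM in the 103 whole myofibers with too few genes only, 40855 CPM in the 81 with too high a mitochondrial share only, and 49765 CPM in the 318 with both. Tcap had 8227, 6731 and 8926 CPM and Neb 13833, 9785 and 12261 CPM in the same order, so each was lowest in the cells that failed for the mitochondrial share alone. At the mitochondrial limit itself, the 5 cells just inside (17.5 to 19.9%), 2 of them fragments, had a median Ttn of 63369 CPM (range 16070 to 85366). The 5 just outside (20.1 to 21.6%), 1 of them a fragment, had a median of 86109 CPM (63969 to 93544). At the limit on genes, the 5 cells just inside (5193 to 5651 genes) had a median of 74673 CPM (30820 to 96871). The 5 just outside (4122 to 4808) had a median of 30151 CPM (20489 to 90135). The ranges overlap at both limits, so no step is read from these few cells.

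In the partner lists, the 14 titin partners at the Z-disc and N2A segment were all below 0 in excluded whole myofibers, with a median log2 ratio of -0.51 and 0 called, and so were the 11 at the M-band and A-band, with a median of -0.48. In the nebulin and thin-filament list, 14 of 16 genes were also below 0, with a median log2 ratio of -0.40. The other 2 of the 16 were called higher, against a background of 16.9%. These were Nebl, the nebulin relative nebulette, at 37.6 against 14.6 CPM (log2 ratio 1.37), and Lasp1, a small nebulin-repeat protein of many cell types, at 25.8 against 9.01 CPM (1.52). In the list of splicing and assembly genes, 1 of 6 was called lower (background 4.62%), Rbm24, a muscle splicing factor, at 193 against 400.4 CPM (-1.05).

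The fourth comparison sets excluded fragments of the pseudo-biopsy beside excluded cells labelled whole. Since the latter include rod-shaped pieces of the low gate, it compares the ways of preparation and not fragments with intact fibres. Ttn was at 48832 CPM (48495 to 49171) in fragments, a log2 ratio of 0.10 (0.09 to 0.11), with 0.16 and 0.04 on the lanes and 5 of 8 plates above 0, but -0.051 as a mean over cells. Neb was at 11565 CPM, a log2 ratio of 0.06, with lanes at 0.15 and -0.04. Tcap was at 7664 CPM, a log2 ratio of -0.01, with lanes at 0.10 and -0.13. For Neb and Tcap the direction differed between lanes, and for Ttn it turned with the way of averaging, so none is read. Of 2258 genes, 1.77% were called, 0.31% higher and 1.46% lower, and 0 of these 3 were. Obsl1 had 158 counts over both groups, under the minimum of 500, and levels of 23.8 CPM (16.9 to 32.5) in fragments and 20.6 CPM in whole myofibers. Of the 8 lists of other cell types, 0 were higher in fragments. None of the partner genes with enough counts was called.

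Only 3 fragments passed the filters. They held 85366, 13889 and 59986 CPM of Ttn and 7867, 2804 and 10150 CPM of Tcap. The lowest of them, from plate 710, was one of the 10 cells low in Acta1.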

How the data were processed

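The authors sorted FDB cells of 1 mouse, made mcSCRB-seq libraries and mapped reads to GRCm38 with spike-in sequences by zUMIs, with STAR 2.5.4b and featureCounts. The submitters' processing notes also name Cell Ranger 3.1.0. The deposited table holds raw UMI counts for 763 cells. It was recorded under another unit name because 10 descriptive rows stand above the counts. zUMIs was run with default settings, and what these do with intron reads is not spelled out in the sources used here.

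From these counts, CPM was computed over 35136 nuclear genes, per cell and per group, with Python 3.11.15, numpy 2.4.6, scipy 1.17.1, pandas 2.3.3 and matplotlib 3.10.9. Limits were exact Poisson for levels, exact conditional binomial for ratios and Clopper-Pearson for shares, all at 95% and for counting error only. No doublet caller was run, and 0 cell barcodes occurred more than once. The calculations were tested on simulated data. Gene lengths and positions came from the GENCODE annotation of GRCm38.

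Named genes were the members, for each the 5 genes most correlated over fast 2X cells, and from each partner list those past 2-fold and otherwise those furthest from 0. An item of 1 partner list is not reported here. The members and lists were chosen with earlier results of these data known. Alternatives covered scaling, denominator, thinning, filters, class rule, lanes and plates. Leaving out single plates, the Obsl1 cell and the 10 low-Acta1 cells was added after the data were seen.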

Additional observations from a re-analysis of the deposited data

How the results depend on the processing

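For fast 2A over fast 2X the log2 ratios of the 4 members stayed above 0 in 64 of 64 alternatives. For excluded whole myofibers over kept cells the sign held in 50 of 53 and for fragments over whole myofibers in 36 of 44. The cause of the shifts below was not tested except where the scaling itself sets them.

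For fast 2A over fast 2X, TMM gave log2 ratios of 0.29 for Ttn, 0.31 for Neb and 0.32 for Tcap, and median-of-ratios scaling 0.30, 0.31 and 0.32. Neb was 0.19 with mitochondrial genes in the denominator, 0.17 as a mean over cells, 0.17 after thinning, 0.25 with the largest myosin gene at 60% or more and 0.18 as the median within plates. Obsl1 after thinning was 0.53. Leaving out each lane gave 0.15 to 0.20 for Ttn and 0.18 to 0.20 for Neb, and leaving out each plate 0.17 to 0.27 and 0.18 to 0.28.

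For excluded whole myofibers over kept cells, mitochondrial genes in the denominator gave -1.46 for Ttn, -1.54 for Neb, -1.26 for Obsl1 and -1.06 for Tcap. TMM gave -1.07, -1.15 and -0.67 for Ttn, Neb and Tcap, median-of-ratios scaling -1.14, -1.22 and -0.75, the mean over cells -0.17, -0.26 and 0.031, and a mitochondrial share computed without the genes mt-Rnr1 and mt-Rnr2 -0.32, -0.37 and 0.10. Tcap was -0.11 with members and myosin genes out of the denominator, -0.078 within plates, -0.092 without the 10 cells low in Acta1 and -0.082 to -0.041 with each plate left out. Obsl1 was -0.62 without plate 705. Fragments over whole myofibers gave Ttn -0.051 as a mean over cells.

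Genes past 2-fold numbered 214 for fast 2A over fast 2X, 838 with at least 100 counts and 5735 with no minimum (higher 77, 203 and 2443, lower 137, 635 and 3292). For excluded over kept they numbered 2056, 6090 and 13467 (higher 1614, 5138 and 11692, lower 442, 952 and 1775), and for fragments 40, 414 and 5079 (higher 7, 62 and 2331, lower 33, 352 and 2748). The CV in fast 2X cells was 0.347 to 0.371 for Ttn and 0.322 to 0.348 for Neb with each lane left out. After thinning it was 1.46 for Obsl1 and 0.250 for Tcap.

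No paired analysis was possible because the replicate numbers mark lanes of 1 group that hold different cells, but groups of cells on the same plate were compared within plates. Depth limits Obsl1, which most excluded cells lacked, and 1 mouse limits every comparison.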
